A study of Homo sapiens with 30 samples.

Results

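RPB1, the product of POLR2A, is the catalytic subunit of the enzyme that transcribes protein-coding genes, RNA polymerase II. Its tail, the C-terminal domain (CTD), carries many copies of a heptad that begins with tyrosine. Tyrosine 1 is one of the heptad residues that kinases phosphorylate while the enzyme transcribes, and this mark is known for its part in elongation and termination. The response compared here is that of cells left with a CTD in which tyrosine 1 is phenylalanine (Y1F), set against that of cells left with no RPB1 supplied in its place. The 2 responses were compared as a difference in change, the treated minus untreated log2 change of the Y1F line minus that of the degron line, over 8 of the 30 poly(A) RNA libraries of the series.

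The treated Y1F libraries came from cells of genotype RPB1 degron with a Y1F RPB1 complement, given doxycycline at 2 µg/mL for 24 h to induce the mutant and then dTAGV-1 at 100 nM for 12 h, a degrader of the tagged endogenous protein. The untreated Y1F libraries had the same genotype and neither agent. The treated degron libraries had the RPB1 degron alone and received dTAGV-1 at 100 nM for 12 h, and the untreated degron libraries received nothing. Both lines thus carry the degron in all 4 groups, and each group has 2 libraries. Doxycycline was given only to the treated Y1F cells, so that the Y1F protein, doxycycline and any difference between the 2 lines cannot be told apart. Nothing in the labels says that replicates came from separate cultures or whether a line is 1 clone, so p-values measure the spread between libraries, which may be technical.

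The residue that differs is shown in the reference sequence of the endogenous gene. In the last of the 29 exons of POLR2A, on the plus strand, 15 exact heptads stand in a row, of 21 exact heptads in the reading frame. The first 14 of the row lie at chr17:7513170-7513463 (GRCh38, GENCODE release 29), with their tyrosine codons in capitals. The sequence of the induced Y1F copy was not used here.
POLR2A CTD stretch: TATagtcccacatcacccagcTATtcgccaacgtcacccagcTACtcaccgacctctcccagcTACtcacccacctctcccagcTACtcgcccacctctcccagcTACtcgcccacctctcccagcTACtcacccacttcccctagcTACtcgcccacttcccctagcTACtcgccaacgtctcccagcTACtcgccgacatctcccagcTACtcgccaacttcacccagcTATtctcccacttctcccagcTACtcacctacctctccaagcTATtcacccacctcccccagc

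The 8 libraries held 11421579 to 17912802 counts. All are labelled A549, a lung adenocarcinoma line, but the 20 A549 and lung epithelial markers summed to 86.2 to 127 TPM, the length-scaled abundance unit, in them, against 27939 and 27950 TPM in the untreated Mock libraries of the series. SCGB1A1 had 0 counts in the 8 libraries together, and KRT7, KRT19, AKR1B10, AKR1C1, FGA and FGB had 1 to 5. Others of this list were present, with KRT8 at 37.2 to 58.9, KRT18 at 28.5 to 51.0 and NKX2-1 at 6.86 to 14.1 TPM. The highest values in the series were 2656, 2974 and 14.1 TPM in the same order. The 8 kidney HEK293 or neuronal markers summed to 209 to 783 TPM, against 77.2 and 82.4 TPM in Mock. All 8 of them were counted in each of the 4 groups, and in Mock as well. Of these, INA stood at 0.104 to 1.03 TPM, against up to 55.7 TPM elsewhere in the series. The cells are therefore called by their genotype below. Between treated Y1F and treated degron libraries the summed levels were 86.2 to 88.3 against 99.1 to 116 TPM for the A549 and lung list, 209 to 235 against 249 to 268 TPM for the kidney or neuronal list, 24.1 to 25.0 against 38.0 to 47.1 TPM for immune, 14.6 to 14.9 against 33.2 to 35.1 TPM for fibroblast and 6.67 to 7.53 against 6.04 to 8.01 TPM for endothelial markers. Their part in the results was not tested. In these bulk libraries fewer cells of a type and less of an RNA per cell cannot be told apart.

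POLR2A, whose reads do not tell the endogenous copy apart from an induced one, stood at 605 and 675 CPM (counts scaled to library size) in treated Y1F libraries, at 365 and 289 CPM in untreated Y1F libraries, at 411 and 689 CPM in treated degron libraries and at 461 and 288 CPM in untreated degron libraries. Both treated Y1F libraries lay above both untreated ones, while the degron libraries overlapped. The difference in change was 0.41 ± 0.37 (log2 ± standard error, n = 2 libraries per group) with adjusted p = 0.68, so it did not pass. Leaving out replicate 1 of the untreated degron group gave 0.03. Leaving out replicate 2 of the treated degron group gave 0.82. These were the lowest and highest of 8 such values, none of which passed. All tests across genes are the quasi-likelihood test of edgeR, with p adjusted by the Benjamini-Hochberg method, and a gene is called at an adjusted p under 0.05. "Risen" and "fallen" stand for called changes in 1 line, relative to the typical gene of that line. "Higher" and "lower" stand for a called difference in change, with the Y1F line on top.

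The Y1F response ran close to the response to loss of RPB1. Of 19982 genes tested, 8795 (44.0%) were called in the Y1F line, 4606 risen (23.1%) and 4189 fallen, and 8881 (44.4%) in the degron line, 4609 risen (23.1%) and 4272 fallen (21.4%). Across 11571 genes averaging 5 CPM or more, the 2 changes correlated with r = 0.86, a description across genes, which are not independent replicates. Over the 16 choices of 1 library per group r was 0.61 to 0.87. The changes were of like size, with a standard deviation across these genes of 0.65 in the Y1F line and 0.67 in the degron line (log2).

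**Figure D1:**
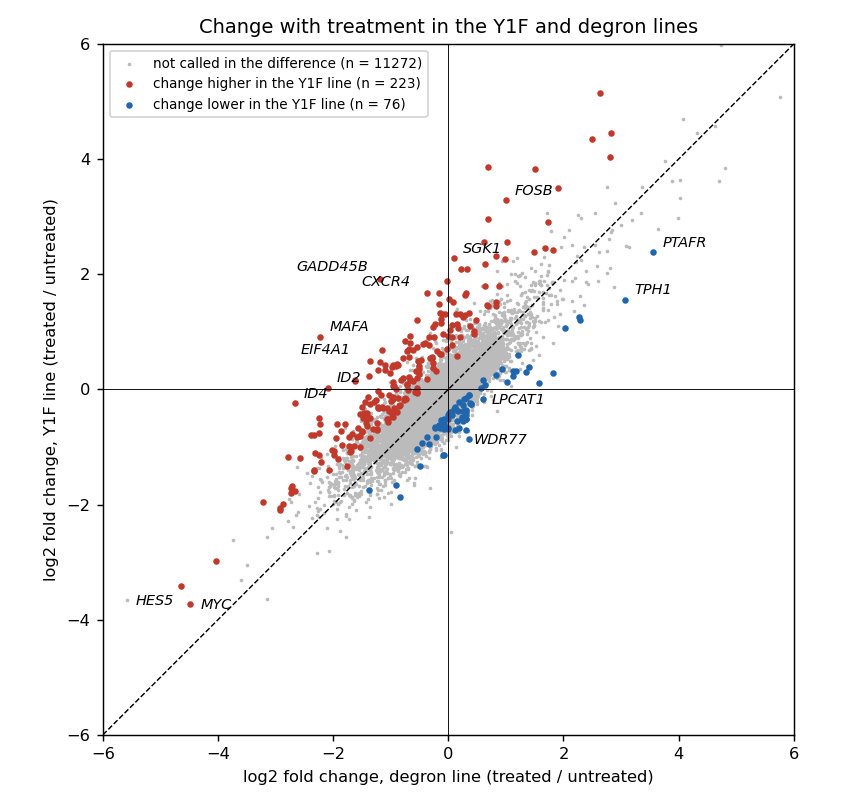
Change with treatment of 11571 genes averaging 5 CPM or more, on the y axis in the Y1F line and on the x axis in the degron line (log2 fold change, treated over untreated, 2 genes lie outside the axes); grey points are not called in the difference, 223 red points are higher and 76 blue points lower, and the dashed line marks equal change. The points follow the dashed line (r = 0.86), and red points lie above the line on both sides of 0.

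Genes that fell by at least 2-fold in the degron line fell less in the Y1F line. There were 1642 of them (8.22% of the genes tested), of which 1222 (74.4%) also fell in the Y1F line, 16 rose and the others were not called. Their median change was -1.01 in the Y1F line, against -1.39 in the degron line. Genes chosen in 1 line lie farther out in that line by selection, so the reverse was counted too. Of the 1247 genes (6.24%) fallen at least 2-fold in the Y1F line, 1063 (85.2%) fell in the degron line, with medians of -1.31 in the Y1F line and -1.24 in the degron line. Of the genes risen at least 2-fold, 70.1% of the 2905 chosen in the Y1F line (14.5% of the genes tested) rose in the degron line, and 79.6% of the 2453 chosen in the degron line (12.3%) rose in the Y1F line.

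Some of the largest falls in the degron line had no called difference. HES5, a Notch target and repressor of neuronal genes, had 0.411 and 0.493 CPM in treated Y1F and 5.80 and 5.59 CPM in untreated Y1F libraries, against 0.306 and 0.578 CPM in treated degron and 24.6 and 18.9 CPM in untreated degron libraries. It fell in both lines to a level near 0, and its difference of 1.93 ± 0.77 had adjusted p = 0.25 in edgeR's test. IRS4, an insulin receptor substrate gene, fell to 109 and 101 CPM in treated Y1F libraries, against 1221 and 1396 CPM untreated, and to 174 and 148 CPM in treated degron libraries, against 1376 and 1464 CPM untreated (difference -0.49 ± 0.16, adjusted p = 0.14 in edgeR's test). NOG, which encodes the BMP antagonist noggin, the potassium channel subunit gene KCNJ11, LRATD2 and the mitochondrial RNA methyltransferase gene MRM1 also fell in both lines, by 2.61 to 3.32 (log2) in the Y1F line, with adjusted p of 0.22 to 0.78 for the difference (edgeR).

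A difference in change was called for 417 genes (2.09% of those tested), 324 higher (1.62%) and 93 lower (0.465%). With a correction for GC content 2873 genes were called, 1334 higher and 1539 lower. With the authors' factors, fitted on the 8 libraries alone, 42 were called, all of them higher. The fit on the 8 libraries without those factors called 80, 78 higher and 2 lower. A call lost below with the authors' factors is thus lost in a smaller fit as well as on another scale. In the fit on all 30 libraries, 205 genes were higher by at least 2-fold (1.03%) and 30 lower (0.150%). Of the 324 higher genes, 77 had fallen in the degron line with no call in the Y1F line, 79 had fallen in both, 82 had risen in the Y1F line with no call in the degron line, 39 had risen in both, and 47 had risen in the Y1F line and fallen in the degron line. Of the 93 lower genes, 35 had fallen in the Y1F line alone, 27 had risen in the degron line alone, 13 had risen in both, 10 had fallen in both and 8 had fallen in the Y1F line and risen in the degron line. When each of the 8 libraries was left out in turn, 107 of the 324 and 9 of the 93 were called every time. With library sizes set by the mRNAs of the mitochondrial genome, 263 of the 324 and 12 of the 93 were called, and in a fit on the 8 libraries alone 78 and 2.

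GADD45B, a stress-induced gene whose product binds and activates a MAP kinase kinase kinase, was among the genes that moved in opposite directions. It had 34.9 and 39.2 CPM in treated Y1F and 11.2 and 8.25 CPM in untreated Y1F libraries, against 5.82 and 9.77 CPM in treated degron and 18.7 and 17.1 CPM in untreated degron libraries. Treated Y1F libraries were the highest of the 4 groups, and treated and untreated libraries did not overlap in either line. The change was 1.93 ± 0.21 in the Y1F line and -1.19 ± 0.21 in the degron line, and the difference 3.12 ± 0.30 (adjusted p = 1.9e-06, edgeR). MAFA, a transcription factor best known from beta cells, had 8.01 and 8.30 CPM in treated Y1F and 4.57 and 4.04 CPM in untreated Y1F libraries, against 2.14 and 3.01 CPM in treated degron and 13.7 and 10.3 CPM in untreated degron libraries, a difference of 3.14 ± 0.33 (adjusted p = 6.5e-06, edgeR). The transcription factor gene ZNF143, which binds promoters of many genes, had a difference of 1.83 ± 0.14 (0.68 in the Y1F line, -1.15 in the degron line), and ADM, which encodes the vasodilator peptide adrenomedullin, one of 1.67 ± 0.23 (0.48 and -1.19 in the same order). EIF4A1, the translation initiation helicase, had a difference of 1.85 ± 0.21 at a low level of 8.96 CPM, and its reads are uncertain because it overlaps the readthrough gene SENP3-EIF4A1 and small nucleolar RNA genes. These 3 genes had adjusted p of 1.1e-07 to 1.8e-04 in edgeR's test.

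How many genes moved in opposite directions depends on the scaling, since the direction in each line is relative to its typical gene. With the authors' factors, which put the median change at -0.87 in the Y1F line and -0.82 in the degron line, 13 genes were higher with a rise in the Y1F line and a fall in the degron line, and 0 lower with the reverse, in a fit on 8 libraries. GADD45B had 1.06 in the Y1F line and -2.06 in the degron line on that scale and MAFA 0.05 and -3.08, while EIF4A1, ZNF143 and ADM stood at -0.38, -0.19 and -0.40 in the Y1F line. The difference in change was moved less, with a median over all genes of -0.04 with the authors' factors and 0.11 with mitochondrial scaling. That shift bears on small differences such as those of the lower genes. GADD45B had 3.12 and 3.24 and ZNF143 1.82 and 1.96 with these 2 scalings, on the log2 scale of the difference.

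Immediate early and other short-lived mRNAs, which respond within minutes to new signals or transcription, held the most called genes of the 39 lists. Of 40 tested, 19 were higher and 0 lower, against 1.62% and 0.465% of all genes, and 38 of 40 had a positive difference, against 9628 of 19982. Their median was 0.24 in the Y1F line, -0.53 in the degron line and 0.84 in the difference, against 0.03, 0.05 and -0.01 over all genes. With the authors' factors these medians were -0.63, -1.39 and 0.83, and with mitochondrial scaling -0.11, -1.02 and 0.98. In the WT line, given doxycycline and dTAGV-1 with an unmutated CTD, the median of the list was 0.23 without these scalings. That is near the 0.24 of the Y1F line, against 0.03 over all genes in the WT line. In the Y1F line 17 of the 40 had risen and 8 fallen, and in the degron line 7 had risen and 17 fallen. The 9 called with each library left out were FOSB, SGK1, ID1, ID2, ID3, ID4, CCN1, KLF4 and ATF3. With the 8 libraries fitted alone KLF4 was not called.

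FOSB, an AP-1 transcription factor, had 29.5 and 32.8 CPM in treated Y1F and 3.51 and 2.84 CPM in untreated Y1F libraries, against 5.51 and 5.49 CPM in treated degron and 2.99 and 2.48 CPM in untreated degron libraries. It rose in both lines, by 3.29 ± 0.18 in the Y1F line and 1.00 ± 0.20 in the degron line, and the difference was 2.29 ± 0.28 (adjusted p = 4.3e-05, edgeR). SGK1, a kinase induced by serum and glucocorticoids, had 38.7 and 38.0 CPM in treated Y1F and 7.59 and 8.17 CPM in untreated Y1F libraries, against 7.41 and 6.36 CPM in treated degron and 6.04 and 6.81 CPM in untreated degron libraries. Only the treated Y1F libraries stood apart, and the difference was 2.18 ± 0.18 (adjusted p = 2.2e-07, edgeR). CCN1, a matricellular protein gene, KLF4, a zinc finger transcription factor gene, and ATF3, a stress-induced bZIP factor gene, rose in the Y1F line by 1.49 ± 0.16, 1.32 ± 0.17 and 1.67 ± 0.12. Their changes in the degron line were -0.16, -0.12 and 0.30, of which the last passed, and their differences 1.65, 1.43 and 1.37 (adjusted p of 4.7e-05 to 0.0016 in edgeR's test). In the authors' deposited comparison the Y1F changes of CCN1, KLF4 and ATF3 were 0.62, 0.45 and 0.80.

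**Figure D2:**
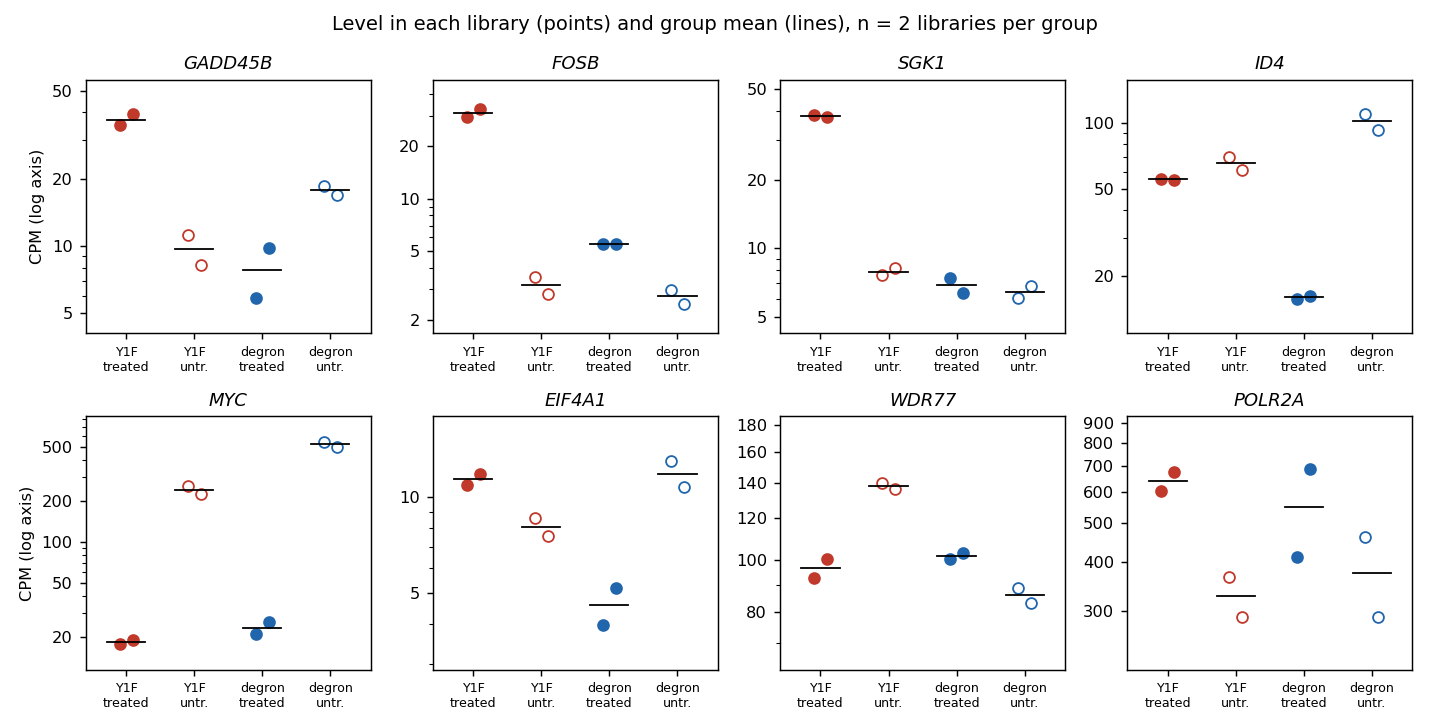
Level of 8 genes in each library (points, CPM on a log axis) and the mean of the 2 libraries of a group (lines), with the treated and untreated Y1F libraries in red and the treated and untreated degron libraries in blue, filled for treated. SGK1 and FOSB are high in treated Y1F libraries, ID4 is low in treated degron libraries, and MYC is low in the treated libraries of both lines.

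The ID genes, which encode inhibitors of basic helix-loop-helix factors and are known targets of bone morphogenetic protein (BMP) signalling, differed through the degron line. ID2 had 136 and 138 CPM in treated Y1F and 129 and 138 CPM in untreated Y1F libraries, against 65.7 and 64.9 CPM in treated degron and 278 and 281 CPM in untreated degron libraries. ID4 had 55.7 and 55.0 CPM in treated Y1F and 69.7 and 61.0 CPM in untreated Y1F libraries, against 15.7 and 16.3 CPM in treated degron and 110 and 93.3 CPM in untreated degron libraries. Both fell in the degron line and neither passed the test in the Y1F line (adjusted p = 0.76 for ID2 and 0.059 for ID4, edgeR). The differences were 2.13 ± 0.11 for ID2 (adjusted p = 5.8e-11, edgeR) and 2.43 ± 0.15 for ID4 (adjusted p = 1.4e-09, edgeR). ID1 (1.79 ± 0.29) and ID3 (1.62 ± 0.24) were higher as well, and ID3 fell in both lines, by 1.17 in the Y1F line and by 2.79 in the degron line. For ID1, ID2 and ID4 the untreated libraries differed too, by -1.02, -1.06 and -0.64 (log2, untreated Y1F over untreated degron, called).

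BMP target and inhibitor genes as a list, which holds the 4 ID genes as well, had 8 higher and 0 lower of 17 tested, with medians of -0.67 in the Y1F line, -1.78 in the degron line and 1.12 in the difference. In the Y1F line 1 had risen and 10 fallen, and in the degron line 0 had risen and 15 fallen. BMP2, a ligand of the pathway, fell to 12.4 and 12.4 CPM in treated Y1F libraries, against 132 and 134 CPM untreated, and to 8.08 and 8.03 CPM in treated degron libraries, against 215 and 186 CPM untreated. The difference was 1.22 ± 0.19 (adjusted p = 7.6e-04, edgeR), on falls of 3.42 in the Y1F line and 4.64 in the degron line. SMAD7, an inhibitory SMAD, had a difference of 1.12 ± 0.22 and HEY1, a repressor that both BMP and Notch signals induce, of 0.93 ± 0.12 (adjusted p of 0.0063 and 1.2e-04, edgeR). SMAD6, the other inhibitory SMAD, had 1.05 ± 0.23 and was not called without any one of 4 libraries (treated and untreated degron replicate 1, treated and untreated Y1F replicate 2; values of 0.94 to 1.20 and adjusted p up to 0.097 over all 8, edgeR).

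Notch pathway genes had 5 higher and 0 lower of 19, while their median difference was -0.05. Of all genes, 1.62% were higher and 0.465% lower. HEY1, given above, is counted in both the BMP and the Notch list. HES1, a target and repressor, had 32.3 and 32.5 CPM in treated Y1F and 30.3 and 28.5 CPM in untreated Y1F libraries, against 7.90 and 9.48 CPM in treated degron and 27.9 and 25.3 CPM in untreated degron libraries. Only the treated degron libraries stood apart, and the difference was 1.76 ± 0.19 (adjusted p = 8.5e-06, edgeR). The ligand gene DLL4 was higher by 2.10 ± 0.37 at a level of 1.22 to 4.25 CPM (adjusted p = 0.0025, edgeR), rising in the Y1F line and falling in the degron line. Its changes were 0.56 and -1.53 in the authors' deposited comparison. Negative feedback genes of the ERK pathway had 3 higher and 0 lower of 17, all called with each library left out: the MAP kinase phosphatase genes DUSP1 (1.55 ± 0.26) and DUSP4 (1.29 ± 0.25) and the inhibitor gene SPRY2 (1.12 ± 0.17). DUSP1 and SPRY2 fell in the degron line by 1.22 and 1.54, and their changes in the Y1F line were 0.33 and -0.42, of which the second passed. DUSP4 rose in the Y1F line, by 0.79, and fell in the degron line, by 0.50. With the authors' factors it stood at -0.08 in the Y1F line. With those factors DUSP4 and SPRY2 were not called in the difference, nor was DUSP4 in the fit on 8 libraries.

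Among stress lists, NF-kB targets and chemokines had 0 higher and 0 lower of 16, NRF2 targets 0 and 1 of 22 and interferon-stimulated genes 0 and 1 of 21. HIF targets had 4 higher and 0 lower of 20, against 1.62% and 0.465% of all genes. Each of the 4 was called with each library left out in turn. ADM (given above), the prolyl hydroxylase gene EGLN3, which limits HIF, and NDRG1, a stress-induced gene, rose in the Y1F line and fell in the degron line, as did PFKFB3, which encodes a regulator of glycolysis. EGLN3 changed by 0.56 in the Y1F line and -0.68 in the degron line, and the differences of NDRG1 and PFKFB3 were 1.38 ± 0.18 and 0.86 ± 0.17, with adjusted p of 1.1e-04 to 0.0065 for the 3 (edgeR). With the authors' factors NDRG1, EGLN3 and PFKFB3 stood at -0.21, -0.31 and -0.33 in the Y1F line. EGLN3 and PFKFB3 were then not called in the difference, nor was PFKFB3 in the fit on 8 libraries. Of the p53 targets, 3 of 28 were higher and 0 lower, with CDKN1A, the cell cycle inhibitor p21, at 1.15 ± 0.22 and the death receptor gene TNFRSF10B at 0.70 ± 0.11, both risen in the Y1F line. In the authors' deposited comparison they stood at 0.04 and 0.03 in the Y1F line and -1.10 and -0.65 in the degron line. ATF4 stress response genes had 3 higher and 0 lower of 31. ATF4 itself, the translation-controlled activator of amino acid genes, fell to 170 and 182 CPM in treated Y1F libraries, against 611 and 579 CPM untreated, and to 94.2 and 109 CPM in treated degron libraries, against 668 and 621 CPM untreated, a difference of 0.91 ± 0.14 (adjusted p = 6.9e-04, edgeR). HSPA1B, a heat-inducible HSP70 gene with a near-identical copy in HSPA1A that makes its reads uncertain, fell in both lines with a difference of 0.89 ± 0.14 (adjusted p = 7.1e-04, edgeR); it was the 1 higher gene of 22 chaperones, of which 1 was lower. With the authors' factors KLF4, SMAD6, SMAD7, HEY1, CDKN1A, TNFRSF10B and HSPA1B were not called in the difference.

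MYC, the growth-promoting transcription factor, shows a difference that rested on the untreated libraries. It averaged 18.3 ± 0.982 CPM in treated Y1F and 241 ± 21.9 CPM in untreated Y1F libraries, against 23.1 ± 3.26 CPM in treated degron and 519 ± 31.1 CPM in untreated degron libraries (SD, n = 2 each). The difference was 0.77 ± 0.19 (adjusted p = 0.041, edgeR), while the untreated Y1F libraries stood 1.11 (log2) below the untreated degron ones and the direct difference of the treated libraries did not pass (-0.34 ± 0.14, adjusted p = 0.088, edgeR). Its call was lost without untreated degron replicate 1 or 2, treated degron replicate 1, untreated Y1F replicate 2, or treated Y1F replicate 1 or 2 (values of 0.65 to 0.90 and adjusted p up to 0.16 over all 8, edgeR). Across the 324 higher genes, 79 were lower and 11 higher in untreated Y1F than in untreated degron libraries (6.74% and 4.31% of all genes), and 288 were higher and 1 lower in treated Y1F than in treated degron libraries (12.7% of all genes were higher). Across the 93 lower genes, 34 were higher and 4 lower in untreated Y1F than in untreated degron libraries, and 3 were higher and 62 lower in treated Y1F than in treated degron libraries, where 2594 of all 19982 genes were lower. The 324 and 93 genes were chosen from these same libraries, so skews in these directions are built in by the choice.

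Other higher genes named by size encode proteins of many kinds. CRISPLD2, a secreted glycoprotein gene, had 37.8 and 35.1 CPM in treated Y1F and 2.53 and 2.58 CPM in untreated Y1F libraries, against 12.5 and 12.0 CPM in treated degron and 4.58 and 4.01 CPM in untreated degron libraries, and rose in both lines (difference 2.32 ± 0.20, adjusted p = 5.5e-07, edgeR). The chemokine receptor gene CXCR4 rose in the Y1F line, with no call in the degron line and a difference of 2.04 ± 0.25 (adjusted p = 4.1e-05, edgeR). GRIK5, a kainate receptor subunit gene, NPTX2, a neuronal pentraxin gene, CHST8, a sulfotransferase gene, and TEX14, a germ cell gene, had differences of 3.17, 2.26, 1.95 and 1.87, each after a rise of 2.57 to 4.36 in the Y1F line. PLIN5, a lipid droplet protein gene, had 1.88 ± 0.36, and neither it nor TEX14 was called with the authors' factors. FUT3, a fucosyltransferase gene that has close relatives in FUT5 and FUT6 and is uncertain for that reason, had 2.52 ± 0.49 and lost its call without untreated degron replicate 1 or untreated Y1F replicate 1 (values of 2.14 to 2.78 and adjusted p up to 0.14 over all 8, edgeR).

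In the fit on all 30 libraries without GC correction, lower genes were fewer, with smaller differences. With that correction 1539 genes were lower and 1334 higher. WDR77, a cofactor of the arginine methyltransferase PRMT5, had 92.7 and 101 CPM in treated Y1F and 140 and 136 CPM in untreated Y1F libraries, against 100 and 103 CPM in treated degron and 88.7 and 83.1 CPM in untreated degron libraries. It fell in the Y1F line and rose in the degron line (difference -0.76 ± 0.13, adjusted p = 0.0021, edgeR), and the treated libraries of the 2 lines overlapped. TUB, a tubby family gene, moved the same way with -0.72 ± 0.11 (adjusted p = 6.5e-04, edgeR). MMACHC, which processes vitamin B12, fell in both lines, to 12.1 and 10.7 CPM against 42.9 and 41.1 CPM in the Y1F line and to 17.2 and 18.9 CPM against 33.1 and 31.5 CPM in the degron line (difference -1.03 ± 0.18, adjusted p = 0.0029, edgeR). RTL10, a retrotransposon-derived gene, and SH3BP5-AS1, an antisense RNA that is uncertain because it overlaps SH3BP5, rose in the degron line and were not called in the Y1F line, with differences of -0.90 ± 0.18 and -1.53 ± 0.23 (adjusted p = 0.0070 and 4.9e-04, edgeR). These 5 genes were called with each library left out, but not in the fit with the authors' factors, and WDR77, TUB and RTL10 were not called with mitochondrial scaling either. The other 15 lower genes named by size or opposite direction, among them LPCAT1, NME1, PTAFR and TPH1, each lost the call without at least 1 library.

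Called genes were scattered among lists of machinery that acts on the CTD, in numbers too small to set against the 2.09% of all genes called. Of the 11 RNA polymerase II subunits other than RPB1, 0 were higher and 0 lower, with medians of 0.11 in the Y1F line, 0.42 in the degron line and -0.33 in the difference, which was positive for 1 of them. None of the 20 CTD kinases and cyclins, 15 Integrator or 29 Mediator subunits was called in either direction, and 1 of 13 CTD phosphatases was higher. Of the 22 cleavage, polyadenylation and termination factors 2 were higher, and SCAF8, a CTD-binding factor that limits early termination, was called with each library left out: it fell to 58.9 and 49.7 CPM in treated Y1F libraries, against 81.8 and 83.8 CPM untreated, and to 22.6 and 18.4 CPM in treated degron libraries, against 69.8 and 86.4 CPM untreated (difference 1.32 ± 0.18, adjusted p = 1.8e-04, edgeR). It was not called with the authors' factors. SR and hnRNP splicing factors had 0 higher and 2 lower of 28, neither of which was called with each library left out. In the Y1F line 23 of these 28 had fallen, against 14 in the degron line.

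Lists tied to translation and mitochondria lay slightly below 0 in the difference, with no called member. The median difference was -0.23 for 78 cytosolic ribosomal protein genes, of which 1 was positive, -0.26 for 69 nuclear-encoded respiratory chain genes, of which 2 were positive, -0.21 for 20 aminoacyl-tRNA synthetase genes and -0.14 for the 13 genes of the mitochondrial genome. With mitochondrial scaling these medians were -0.12, -0.14, -0.09 and -0.03 in the same order, against 0.11 over all genes. Without that scaling, genes over 100 CPM in untreated WT libraries had a median difference of -0.16, with 565 of 2344 positive. Whether the level of the listed genes bears on their medians was not tested. Replication-dependent histone genes have mRNAs that mostly lack the poly(A) tail that the libraries select. Of 32 tested, 29 had risen in the Y1F line and 22 in the degron line, against 23.1% of all genes in each. Their median change was 2.12 in the Y1F, 1.70 in the degron and 1.21 in the WT line. In the difference 2 of them were higher and 0 lower. H2BC21 was the one called with each library left out (2.50 ± 0.33, adjusted p = 1.4e-04, edgeR), and reads of histone genes are uncertain among near copies.

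**Figure D3:**
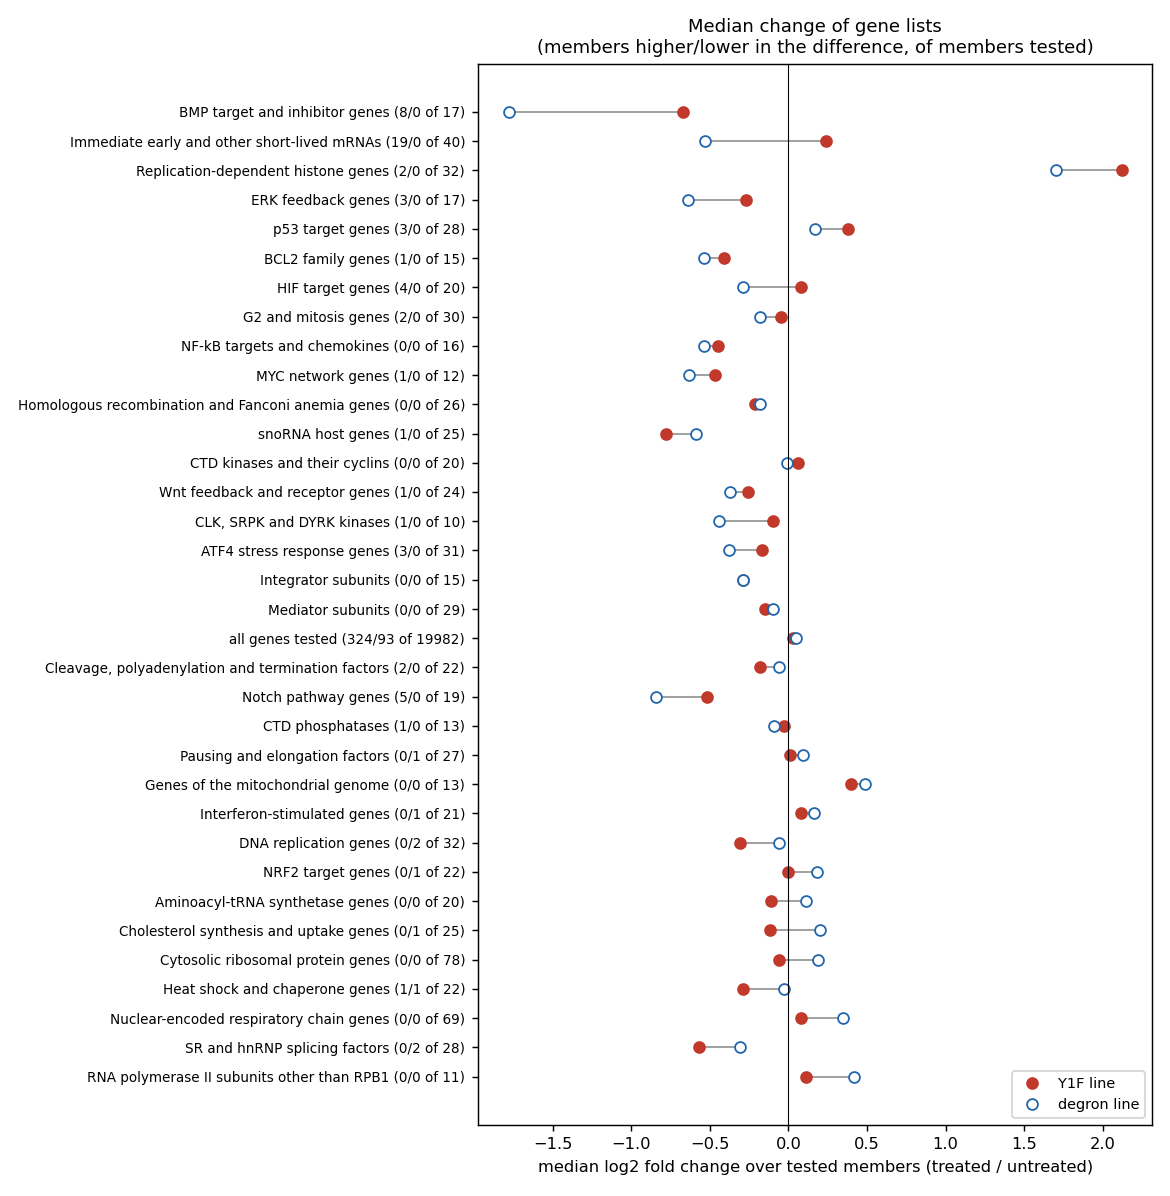
Median log2 fold change (x axis, treated over untreated) of all tested genes and of each list with at least 10 tested members, cell type marker lists left out, filled red circles for the Y1F line and open blue circles for the degron line, in order of the median difference, with the members higher and lower of those tested in the label. Short-lived mRNAs lie at 0.24 in the Y1F line and -0.53 in the degron line (-0.63 and -1.39 with the authors' factors), and BMP genes at -0.67 and -1.78.

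The other lines of the series share no library with the difference and give the changes of the same genes elsewhere. In the WT line, which received doxycycline and dTAGV-1 like the Y1F line but with an unmutated CTD, 27 of the 324 higher genes had risen (8.33%, background 3.09%) and 27 fallen (8.33%, background 1.84%), with a median change of 0.04. In the S2A line, in which serine 2 is alanine, 199 were called (61.4%, background 35.1%), 115 risen and 84 fallen, with a median of 0.24. In the T4V line 147 were called (45.4%, background 28.9%), 92 risen and 55 fallen. In the S5A line 225 were called (69.4%, background 49.7%), 105 risen and 120 fallen. In the S7A line 183 were called (56.5%, background 34.9%), 67 risen and 116 fallen. The median was 0.15 in the T4V line, -0.09 in the S5A line and -0.15 in the S7A line, against 0.53 in the Y1F line and -0.80 in the degron line, the last pair being chosen by the call. SGK1 rose by 3.29 in the S2A line and 1.35 in the T4V line, FOSB by 4.02, 1.76, 1.96, 0.88 and 0.88 in the S2A, T4V, S5A, S7A and WT lines, and GADD45B by 2.72 in the S2A line and 0.59 in the S7A line. ID4 fell in the S2A, T4V, S5A and S7A lines by 0.28, 0.59, 1.28 and 0.63, less than the 2.67 of the degron line, and had -0.07 in the WT line with no call. The changes of these lines were not tested against the difference.

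**Figure D4:**
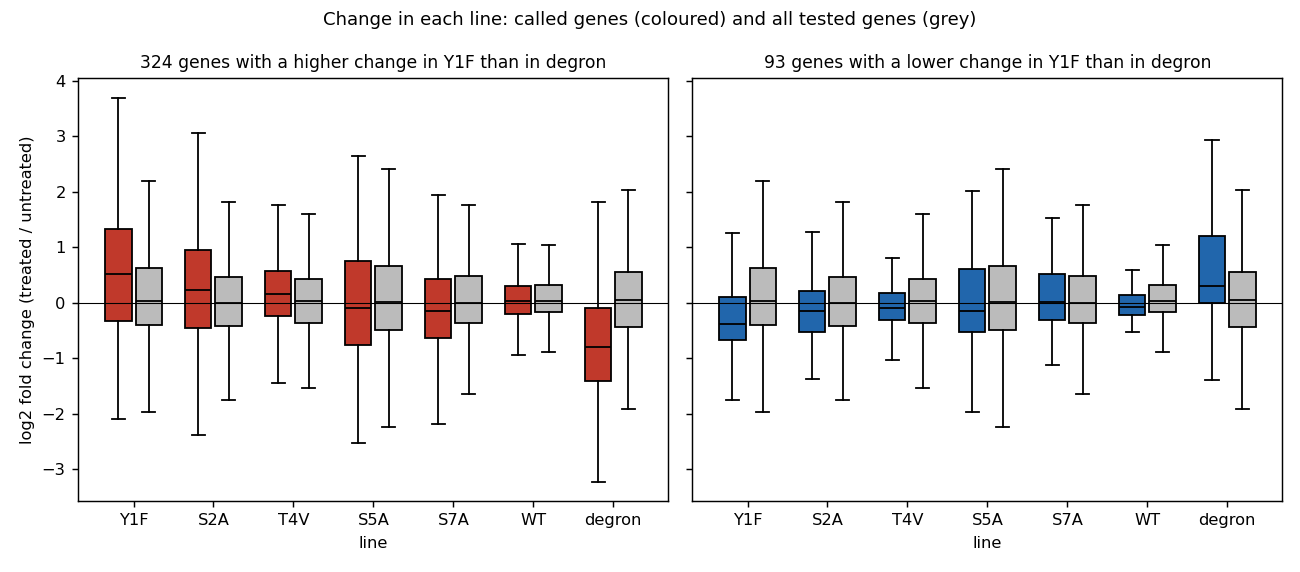
Log2 fold change (y axis, treated over untreated) in each line for the 324 higher genes (left, red) and the 93 lower genes (right, blue) beside all 19982 tested genes (grey); boxes span the quartiles with the median as a line, whiskers reach 1.5 box lengths and points beyond are left out. The higher genes have medians of 0.53 in Y1F, 0.24 in S2A, 0.04 in WT and -0.80 in degron.

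Higher genes were short, and a TATA box was frequent in their promoters. Their median genomic length was 13.6 kb, against 20.5 kb for lower genes and 24.7 kb for all genes tested. In the shortest quartile of protein-coding genes 120 of 3718 were higher and 23 lower (3.85% called), against 42 and 10 of 3718 in the longest quartile (1.40% called). Short genes as a class did not lie higher. The median difference was -0.09 in the shortest quartile, with 1574 genes positive, and 0.00 in the longest, with 1853 positive. Long noncoding genes named LINC or AS had 2.57% and 2.82% called, near the background of 2.09%. Of genes under 1 CPM in Mock that begin within 10 kb downstream of an expressed gene, 5 of 583 were higher and 3 lower (1.37% called), against 1.79% of other genes under 1 CPM. With levels taken from the untreated WT libraries these shares were 0.362% and 0.896%.

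Promoter sequences of 227 of the 324 higher, 73 of the 93 lower and 13203 of all tested genes were in the RefSeq table of promoters used here (GRCh38.p14, 250 bases before to 50 after a start). The TATA box was searched as TATAAA on the gene strand with its first base 40 to 20 bases before the start, a window chosen after values were seen. It stood in 28 higher (12.3%), 2 lower (2.74%) and 250 tested genes (1.89%), and in 2.55% of all 27305 promoters of the table. Seen the other way, 28 of the 250 genes with it were higher (11.2%) and 2 lower, against 199 of 12953 without it (1.54%). Among genes averaging 5 CPM or more, 19 of 112 with it were higher and 0 lower, against 149 of 9198 without it (1.62%). Leaving out the short-lived mRNA and histone lists gave 21 of 227 (9.25%), against 1.47% of 12915.

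On both strands of the whole window, TATAAA was in 17.6% of higher, 6.85% of lower and 6.35% of tested promoters, and 12.0% of the table. The cAMP response element TGACGTCA was in 5.73%, 1.37% and 3.11% (1.98% of the table), and the E box CACGTG in 7.93%, 20.5% and 9.64% (7.43% of the table). The CCAAT box CCAAT was in 41.9%, 41.1% and 36.0% (35.7% of the table), and the GC box GGGCGG in 67.8%, 71.2% and 67.1% (44.6% of the table), each on either strand and counted whether or not it overlaps another motif. A match is a description of these letters and not of a bound factor. The 250 genes with the positioned TATA box had a median difference of 0.23, against -0.03 for those without it, with medians of 0.57 against -0.03 in the Y1F line and 0.14 against 0.00 in the degron line. At 5 CPM or more these were 0.20 against -0.07, 0.02 against -0.13 and -0.15 against -0.05. Other lines also had higher medians for the 250 genes. With no limit on CPM, the medians with the box were 0.18, 0.44, 0.26, 0.28 and 0.23 in the WT, S2A, T4V, S5A and S7A lines. In the same order they were 0.01, -0.07, 0.00, -0.05 and -0.04 for genes without the box. At 5 CPM or more they were -0.01, 0.09, -0.01, -0.11 and -0.05 with the box. Without it they were -0.02, -0.13, -0.03, -0.15 and -0.11 at that level, so the gap was smaller in each of these lines. The higher genes with the positioned TATA box, by size of difference, included PCDH8, GADD45B, CYP1A1, H2BC21, ID4, FOSB, DKK1, FOS, CXCR4, ID1, ADM, DUSP1 and CCN2, and the 2 lower ones were ANXA1 and DIRAS3.

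The last 150 bases before the start of 4 of these genes show the TATA box in capitals at like distances, on the gene strand 5′ to 3′ (RefSeq, GRCh38.p14). They are GADD45B (chr19:2475977-2476126, plus strand), FOSB (chr19:45467846-45467995, plus strand), ID4 (chr6:19837220-19837369, plus strand) and DUSP1 (chr5:172771196-172771345, minus strand), and in DUSP1 the cAMP response element is in capitals too.
GADD45B: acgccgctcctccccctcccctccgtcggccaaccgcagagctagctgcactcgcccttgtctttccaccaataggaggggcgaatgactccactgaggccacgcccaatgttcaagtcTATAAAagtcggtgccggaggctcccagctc
FOSB: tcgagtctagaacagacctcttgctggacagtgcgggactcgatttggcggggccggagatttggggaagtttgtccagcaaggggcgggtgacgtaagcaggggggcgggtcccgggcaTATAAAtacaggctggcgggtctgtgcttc
ID4: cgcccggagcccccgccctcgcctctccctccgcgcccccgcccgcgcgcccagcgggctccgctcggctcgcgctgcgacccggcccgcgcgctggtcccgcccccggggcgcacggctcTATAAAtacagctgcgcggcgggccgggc
DUSP1: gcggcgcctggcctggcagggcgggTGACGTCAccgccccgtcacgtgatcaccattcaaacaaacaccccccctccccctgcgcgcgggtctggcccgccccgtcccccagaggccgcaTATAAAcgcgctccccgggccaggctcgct

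**Figure D5:**
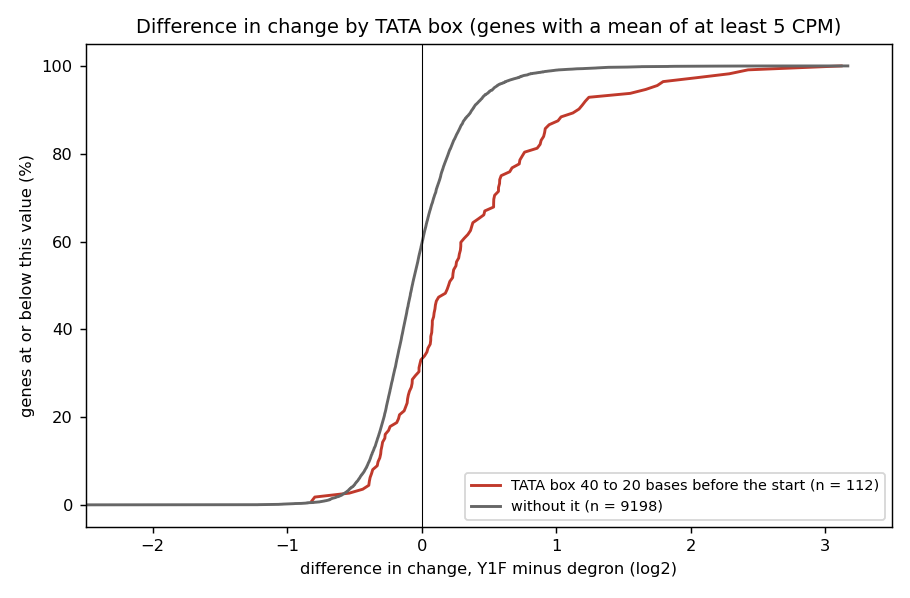
Share of genes (y axis, %) at or below each difference in change (x axis, log2, Y1F minus degron) for genes averaging 5 CPM or more, with a TATA box 40 to 20 bases before the start in red (112 genes) and without it in grey (9198 genes). The red curve lies to the right of the grey one on the positive side, where 19 of its 112 genes were called higher, against 149 of 9198.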

How the data were processed

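RNA was extracted with TRIzol and poly(A) libraries were read at 150 bp from both ends, after 10% of fly S2 cells had been added, per the labels' protocols. The deposited tables hold raw read counts per gene. Per the submitters' processing notes the tools were Trim Galore 0.6.2, STAR 2.7.3a, featureCounts 2.0.1 and DESeq2 1.24.0, with hg38 and dm6 as builds. TPM values were deposited in the same tables and served for marker sums. The authors' deposited comparison tables give log2 fold changes, p-values and a base mean, a signal from which the authors' scaling factors were solved. Strand setting and annotation release: not given in the sources used here, so overlapping and antisense genes are uncertain. The count tables list 0 fly genes.

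Counts of 61578 genes in all 30 libraries were fitted with edgeR 4.0.16 in R 4.3.3 (quasi-likelihood, robust, TMM, 15 groups of 2, 15 residual degrees of freedom, common dispersion 0.0122). The filterByExpr function (at least 10 counts, total of at least 15) kept 19982 genes. A standard error is the log2 value over the root of its F statistic. Coordinates and overlaps come from GENCODE release 29, which matched 56659 IDs. Alternatives were size factors and the Wald test of DESeq2 1.42.0, scaling by 13 mitochondrial mRNAs, the authors' factors (on the 8 libraries), other filters, the 8 libraries alone, a replicate block, GC correction, a direct comparison of treated libraries, and leaving out each library. A crossed block, a fit without Mock and levels from untreated WT libraries were chosen after seeing the data. On simulated counts of 19697 genes, 72 of 100 genes with a difference of 1 (log2) and 96 of 100 with 2 were called in the comparison of Y1F with degron, beside 9 unchanged genes. The changed genes averaged 5 CPM or more. The simulated spread followed the trend with level, with no spread of a gene's own and no GC effect of a library. Replicates differed beyond sampling noise, with a chi-square per degree of freedom of 4.69 to 16.9. Python 3.11.15 with numpy 2.4.6, pandas 2.3.3 and matplotlib 3.10.9 made tables and plots.

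The comparison and the 39 lists were chosen with earlier results of these data known. Named genes were up to 15 higher and 15 lower with the largest difference (mean of at least 5 CPM, all 4 treated minus untreated differences of 1 line beyond those of the other), up to 5 each way called in opposite directions, up to 4 per list, POLR2A, and the 5 largest falls per line without a called difference; clone names and pseudogenes were left out. List members called beyond these, and genes named for a promoter motif, were chosen after their values were seen. A gene that the rule names is not reported here.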

Additional observations from a re-analysis of the deposited data

Results flagged for a closer look

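The test of the difference between the 2 lines passed for 324 genes with a higher and 93 genes with a lower change in the Y1F line. The genes below were called in opposite directions in the 2 lines. Risen in the Y1F line and fallen in the degron line were MAFA (difference 3.14), GADD45B (3.12), EIF4A1 (1.85), ZNF143 (1.83) and ADM (1.67). Fallen in the Y1F line and risen in the degron line were WDR77 (-0.76), C10orf95-AS1 (-0.75), TUB (-0.72), LPCAT1 (-0.69) and NME1 (-0.67). With the authors' factors the degron changes of the last 5 were -0.61, -0.55, -0.62, -0.55 and -0.55, so that they stood below 0 in both lines on that scale. No group has enough libraries for a search for single outlying libraries.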

How the results depend on the processing

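The correlation of the Y1F and degron changes stayed positive under each alternative run, and the difference of POLR2A stayed positive and did not pass, at 0.03 to 0.82 with 1 library left out. The count of genes with a difference in change was 417 (324 higher and 93 lower). It was 42 (42 and 0) with the authors' factors in a fit on 8 libraries, and 80 (78 and 2) on 8 libraries without them. With GC correction it was 2873 (1334 and 1539) and with treated libraries compared directly 5122 (2528 and 2594). With mitochondrial scaling 12 genes were lower. The cause of these shifts was not tested. GC correction called 314 of the 316 higher and 91 of the 92 lower genes that it tested. Leaving out 1 library gave 181 to 254 genes, 162 to 198 higher and 19 to 56 lower. The Y1F count of 8795 was 13307 with the authors' factors and 5370 at 5 CPM or more, where the degron count of 8881 was 5670 and fewer genes were tested. The WT count of 985 was 2300 with mitochondrial scaling, 653 at 5 CPM or more and 3570 with GC correction. The count between untreated lines, 2207, was 1388 with mitochondrial scaling, 701 with the authors' factors, 942 on 8 libraries, 5387 with GC correction and 749 to 2233 without 1 library. The 701 came from a fit on 8 libraries. The authors' factors were solved within each line, so total counts and not those factors set the scale between the lines there. In the direct comparison of treated libraries CDH1 stood at -0.51, MYC at -0.34, KLF10 at -0.16 and ACAT2 at 0.13, each with its sign turned.

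Deviations of same-numbered treated and untreated libraries correlated at -0.61 in the Y1F and -0.74 in the degron line. In the WT, S2A, T4V, S5A and S7A lines they correlated at -0.48, 0.11, -0.09, 0.01 and 0.64. With 2 libraries per group, where an effect on a whole library can set the sign, this cannot show whether the numbers pair the libraries. With the replicate block the difference was called for 173 genes (155 higher and 18 lower), for 2572 (1183 and 1389) with GC correction as well, against 393 with crossed numbers. The block gave 483 genes in the WT line and 396 between untreated lines, and 3235 and 3815 with GC correction. With 2 libraries per group, 72 of 100 simulated differences of 1 (log2) were called, so that a gene without a call is not shown to respond alike.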
